A study of Mus musculus with 11 samples.

Results

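The genes described here are those that build and load MHC class I molecules: the classical heavy chains *H2-K1* and *H2-D1*, their shared light chain *B2m*, the peptide transporter subunits *Tap1* and *Tap2*, the loading factor tapasin (*Tapbp*), the inducible proteasome subunits *Psmb8*, *Psmb9* and *Psmb10*, and the transactivator *Nlrc5*. They were taken by name from the table of raw counts, which holds all 10 among 29307 listed genes, and all 10 were among the 12905 genes with enough counts to be tested. RNA was sequenced from liver sinusoidal endothelial cells (ECs) of 6 conventionally raised (CONV-R) and 5 germ-free (GF) mice, with 1 library per mouse. All were male C57BL/6J mice of 10 to 12 weeks from the same colonies, and both groups ate the same autoclaved diet. CONV-R mice were kept under specific pathogen-free conditions and carried a gut microbiota, whereas GF mice lived in isolators without microbes. ECs were enriched with beads against CD146 and then sorted for CD31, CD105 and CD146, and the RNA was amplified as whole transcriptome before library preparation. The study names low viability after sorting as a limit and obtained fewer cells and less RNA from GF livers, so the libraries of the groups also differ in the material they came from.

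MHC class I molecules display peptides from inside the cell to CD8+ T cells. Cytosolic proteins are cut by the proteasome, the TAP transporter carries the peptides into the endoplasmic reticulum (ER), tapasin holds TAP and an empty heavy chain together until a fitting peptide binds, and β2-microglobulin stabilizes the finished complex. Interferons raise most of these genes together, and NLRC5 acts at a composite promoter element of class I genes that contains an X box and a Y box. Liver sinusoidal ECs are known for taking up antigen from portal blood and for presenting it to CD8+ T cells, often with tolerance as the outcome.

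Promoter sequences are shown for the heavy chains, *B2m* and the *Psmb9* and *Tap1* pair. These genes were raised together in 1 of the libraries below, and their windows hold the short words marked in capitals. Whether those words bear on that rise was not tested. RefSeq promoter windows on GRCm38.p6, which run from 250 bases before to 50 bases after a transcription start, were matched for 8 of the 10 genes; *Tap2* and *Nlrc5* were not among them. Below, only the bases before the start are given, 5′ to 3′ on the strand of the gene, for *H2-K1* (chr17:34000348-34000597, minus strand), *H2-D1* (chr17:35262844-35263093, plus strand) and *B2m* (chr2:122147437-122147686, plus strand). The last line is the stretch between the starts of the divergent pair *Psmb9* and *Tap1* (chr17:34187331-34187555, plus strand, in the direction of *Tap1*). Capitals mark the words TGACG and CCAAT on either strand, which match the core of the X2 part of the X box and the core of the Y box.
H2-K1: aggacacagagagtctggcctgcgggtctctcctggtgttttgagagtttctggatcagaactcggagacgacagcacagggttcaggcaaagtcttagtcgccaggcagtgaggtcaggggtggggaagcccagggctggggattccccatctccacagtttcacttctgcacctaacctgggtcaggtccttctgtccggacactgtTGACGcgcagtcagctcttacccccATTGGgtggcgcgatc
H2-D1: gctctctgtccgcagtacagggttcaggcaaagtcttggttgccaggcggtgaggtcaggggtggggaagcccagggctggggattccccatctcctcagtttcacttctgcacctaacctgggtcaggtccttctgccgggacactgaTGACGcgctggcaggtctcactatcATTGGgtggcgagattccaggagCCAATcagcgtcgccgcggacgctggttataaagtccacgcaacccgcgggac
B2m: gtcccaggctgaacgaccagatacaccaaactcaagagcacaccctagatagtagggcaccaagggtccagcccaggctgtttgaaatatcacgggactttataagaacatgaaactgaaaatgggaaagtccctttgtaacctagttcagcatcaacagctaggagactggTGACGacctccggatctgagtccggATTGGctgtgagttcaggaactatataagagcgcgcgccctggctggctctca
Psmb9-Tap1: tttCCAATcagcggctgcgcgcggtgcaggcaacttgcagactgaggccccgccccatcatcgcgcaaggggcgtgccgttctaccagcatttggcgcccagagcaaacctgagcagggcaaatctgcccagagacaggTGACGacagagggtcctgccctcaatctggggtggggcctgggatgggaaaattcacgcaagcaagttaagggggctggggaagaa
In the whole windows, CCAAT or its reverse complement ATTGG was present in 6 of the 8 genes (*B2m*, *H2-D1*, *H2-K1*, *Psmb9*, *Tap1* and *Tapbp*) and in 37.4% of all 32851 windows. TGACG or CGTCA was present in 5 of the 8, the same genes without *Tapbp*, and in 20.8% of all windows. In *H2-K1*, *H2-D1* and *B2m* alike, TGACG was followed after 20 bases by ATTGG. The *Psmb9* and *Tap1* windows held both words but not with that spacing. That pair with that spacing, searched on both strands after the sequences had been seen, occurred in 31 of all windows (0.0944%), and the only other listed *H2* gene that held it was *H2-M3*, of 32 *H2* genes in the table. The paired interferon response sites (GAAA, any 2 bases, GAAA) stood in the *B2m* window and in 3.44% of all windows, the NF-κB type site (GGG, any 2 bases, TTTCC) in *B2m* and in 1.63%, and the IFN-γ activated type site TTCNNNGAA in *Psmb8* and in 8.30%. No 2 of these matches overlapped within a window, but the *Psmb9* and *Tap1* windows share 275 bases and so share matches. A match describes the letters and is not evidence that a factor bound there.

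Across the 11 libraries the class I genes spanned a wide range of levels. Per kilobase of exon, mean expression over all libraries was 7216 CPM (counts relative to the TMM-scaled total of each library) for *B2m*, 654 for *H2-K1* and 549 for *H2-D1*. *Tapbp* followed with 38.6 CPM per kilobase. Each of these 4 lay above the next gene in the order in 11 of 11 libraries. Next came *Tap1* with 14.5, *Psmb10* with 14.1, *Psmb9* with 9.60, *Nlrc5* with 9.33 and *Psmb8* with 8.80 CPM per kilobase, a stretch of the order in which neighbours did not separate in every library. *Tap1* exceeded *Psmb10* in 7 of 11 libraries, *Psmb9* exceeded *Nlrc5* in 7 and *Nlrc5* exceeded *Psmb8* in 7. *Tap2* was lowest at 3.33 CPM per kilobase, below *Psmb8* in 11 of 11 libraries. Together the 10 genes took 0.715% to 1.81% of all counts in CONV-R libraries and 0.775% to 1.27% in GF libraries.

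Total counts per library lay between 7242717 and 16164588, so even the least counted member, *Tap2*, had 75 to 217 counts in each library. The defining markers of liver sinusoidal ECs were abundant, with a summed level of 30664 to 37497 CPM in CONV-R and 29589 to 42188 CPM in GF libraries over 13 of 13 detected genes. Their median Log2FC between the groups, GF relative to CONV-R, was 0.33, with 9 of 13 above 0, 6 under an unadjusted p of 0.05 and 0 past the adjusted threshold in edgeR's test or in DESeq2. Library CONV-R 3 stood apart from the other CONV-R libraries. It scored -48.1 on the second principal component against 6.01 to 17.6 for the other CONV-R libraries, and it was the highest CONV-R library for 29.6% of the tested genes and the lowest for 30.3%. Because it was also the highest CONV-R library for 9 of the 10 class I genes, the comparisons of the 10 genes are given with and without it, and those of other genes where its absence changed a call or moved the estimate by over 1.5 times. That emphasis was set by the class I values themselves, after they were seen, and leaving out the highest CONV-R value of a gene raises its GF minus CONV-R difference by construction, so the values without CONV-R 3 are descriptions and the tests with all 11 libraries stand as the results. Macrophage RNA also differed: the summed level of 11 Kupffer cell markers, all detected, was 103 to 275 CPM in CONV-R and 258 to 1150 CPM in GF libraries, with GF 6 highest, and 8 of the 11 were higher in GF mice. Macrophages too express class I genes, and the part of their RNA in the differences below was not tested; calls of the 10 genes are also given without GF 6, alone and together with CONV-R 3. Summed markers of cholangiocytes were 0.0683 to 8.84 CPM in CONV-R and 13.2 to 36.8 CPM in GF libraries, with *Spp1* higher, and those of lymphocytes (19.1 to 39.9 and 21.0 to 41.9 CPM) and hepatocytes (29.2 to 67.9 and 37.4 to 86.2 CPM) overlapped between the groups.

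The comparison of GF with CONV-R mice asks whether class I transcripts of the sinusoidal endothelium depend on the microbiota. With all 11 libraries, 1 of the 10 genes, *Nlrc5*, passed an adjusted p of 0.05, and it was higher in GF mice. Across all tested genes 7.48% passed, 4.8% of the tested genes as higher in GF and 2.67% as lower; DESeq2 also called *Nlrc5* alone among the 10, beside 9.93% of the genes it tested. The estimated Log2FC (GF relative to CONV-R) was above 0 for 10 of 10 class I genes, from 0.05 for *B2m* to 0.50 for *Nlrc5*, with a median of 0.23 beside -0.01 for all tested genes and 0.33 for the 13 sinusoidal EC markers, so endothelial markers had a shift of similar size with all libraries. These genes are regulated together and share libraries, so their common sign is a description and not 10 observations. Without CONV-R 3, which is the highest CONV-R library for 9 of these genes, 4 of the 10 had an adjusted p under 0.05, all higher in GF (*H2-K1*, *H2-D1*, *Tap1* and *Nlrc5*). This count is not independent of how the library was singled out, and with all libraries *H2-K1*, *H2-D1* and *Tap1* had adjusted p of 0.641, 0.124 and 0.189 in edgeR's test. In the fit without CONV-R 3, 7.27% of all 12807 tested genes passed and 4.65% were higher, a share against which the members' count cannot be read for the same reason. The median Log2FC of the 10 was then 0.46 beside 0.00 for all genes and 0.27 for the sinusoidal EC markers. Whether the class I genes and these markers differ in their shift was not tested. With CONV-R 3 and GF 6 both left out, the adjusted p of these 4 genes was also under 0.05, with Log2FC of 0.54 for *H2-K1*, 0.56 for *H2-D1*, 0.52 for *Tap1* and 0.60 for *Nlrc5*, and adjusted p of 0.0176, 0.00929, 0.0368 and 0.0279 in edgeR's test, beside 5.34% of all tested genes called and 3.38% higher. The Kupffer cell markers were still raised in that fit, with 11 of 11 estimates above 0, a median Log2FC of 0.93 and 2 called. With GF 6 alone left out, 0 of the 10 passed in edgeR's test and 2, *Nlrc5* and *Psmb8*, were under an unadjusted p of 0.05, beside 4.74% of all tested genes past the adjusted threshold and 3.15% higher. The Log2FC was then 0.51 for *Nlrc5* (adjusted p = 0.0817), 0.36 for *H2-D1* (adjusted p = 0.299) and -0.07 for *B2m*. Fewer transcripts per cell and fewer cells of a type cannot be told apart in such bulk samples.

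**Figure D1:**
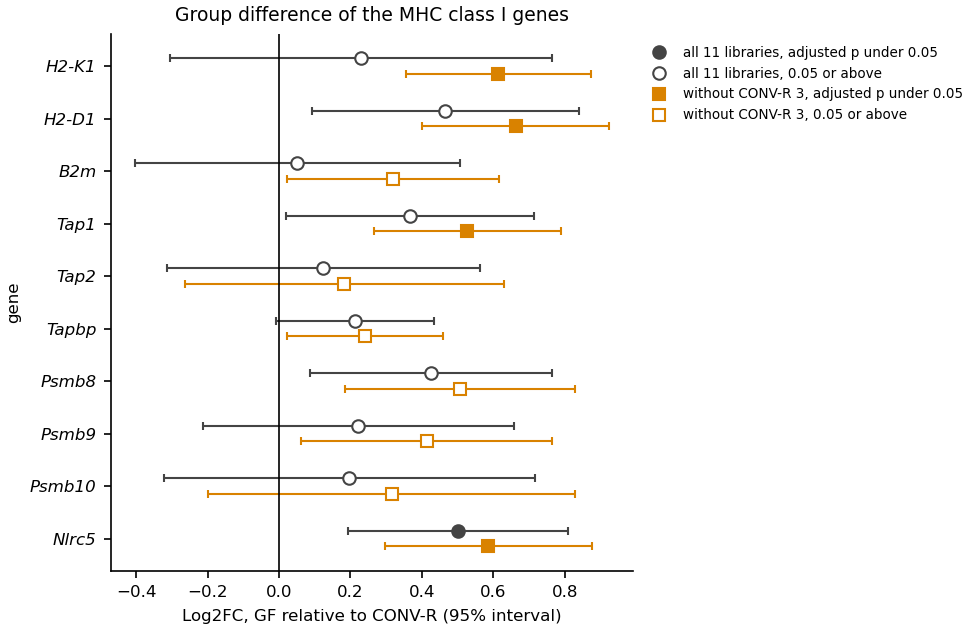
Log2FC of GF relative to CONV-R mice (x axis) for the 10 class I genes (y axis), with 95% intervals; circles use all 11 libraries and squares leave out CONV-R 3, and filled symbols have an adjusted p under 0.05. All 20 estimates lie above 0, 1 of 10 circles (*Nlrc5*) is filled, and 4 of 10 squares are filled.

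*H2-K1* and *H2-D1* encode the classical class I heavy chains H-2K and H-2D, and both lie on chromosome 17. In CONV-R libraries *H2-K1* ran from 1212 CPM over a median of 1332 to 3875 CPM in CONV-R 3. In GF mice 1, 2, 4, 5 and 6 it was 1958, 1602, 2285, 2104 and 2499 CPM. The highest value of all belonged to CONV-R 3, and 4 of the 5 GF libraries lay above the other 5 CONV-R libraries, whose highest value was 1668. Log2FC was 0.23 (95% interval -0.31 to 0.76, adjusted p = 0.641) with all libraries and 0.61 (0.35 to 0.87, adjusted p = 0.00568) without CONV-R 3, a GF to CONV-R ratio of 1.53. *H2-D1* showed the same arrangement more clearly. It ran from 921 CPM over a median of 1079 to 1985 in CONV-R 3, and was 1660, 1324, 1745, 1463 and 2142 CPM in GF mice 1, 2, 4, 5 and 6. The groups overlapped only through CONV-R 3, since the other 5 CONV-R libraries ended at 1197 CPM. Without that library values higher in GF and not overlapping were found for 3.96% of all tested genes. Log2FC of *H2-D1* was 0.47 (0.09 to 0.84, adjusted p = 0.124) with all libraries and 0.66 (0.40 to 0.92, adjusted p = 0.00366) without CONV-R 3.

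*B2m*, on chromosome 2, encodes the light chain that every class I molecule needs, and it was the most abundant of the 10 genes. CONV-R libraries ran from 4632 CPM over a median of 5151 to 11296 CPM in CONV-R 3. GF mice 1, 2, 4, 5 and 6 had 5723, 4452, 7291, 5803 and 8359 CPM, so the lowest library of all was GF 2 and the highest was CONV-R 3. Log2FC was 0.05 (-0.40 to 0.51, adjusted p = 0.924), and 0.32 (0.02 to 0.61, adjusted p = 0.182) without CONV-R 3. Neither fit passed the threshold, and the intervals allow a difference of either sign with all libraries.

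**Figure D2:**
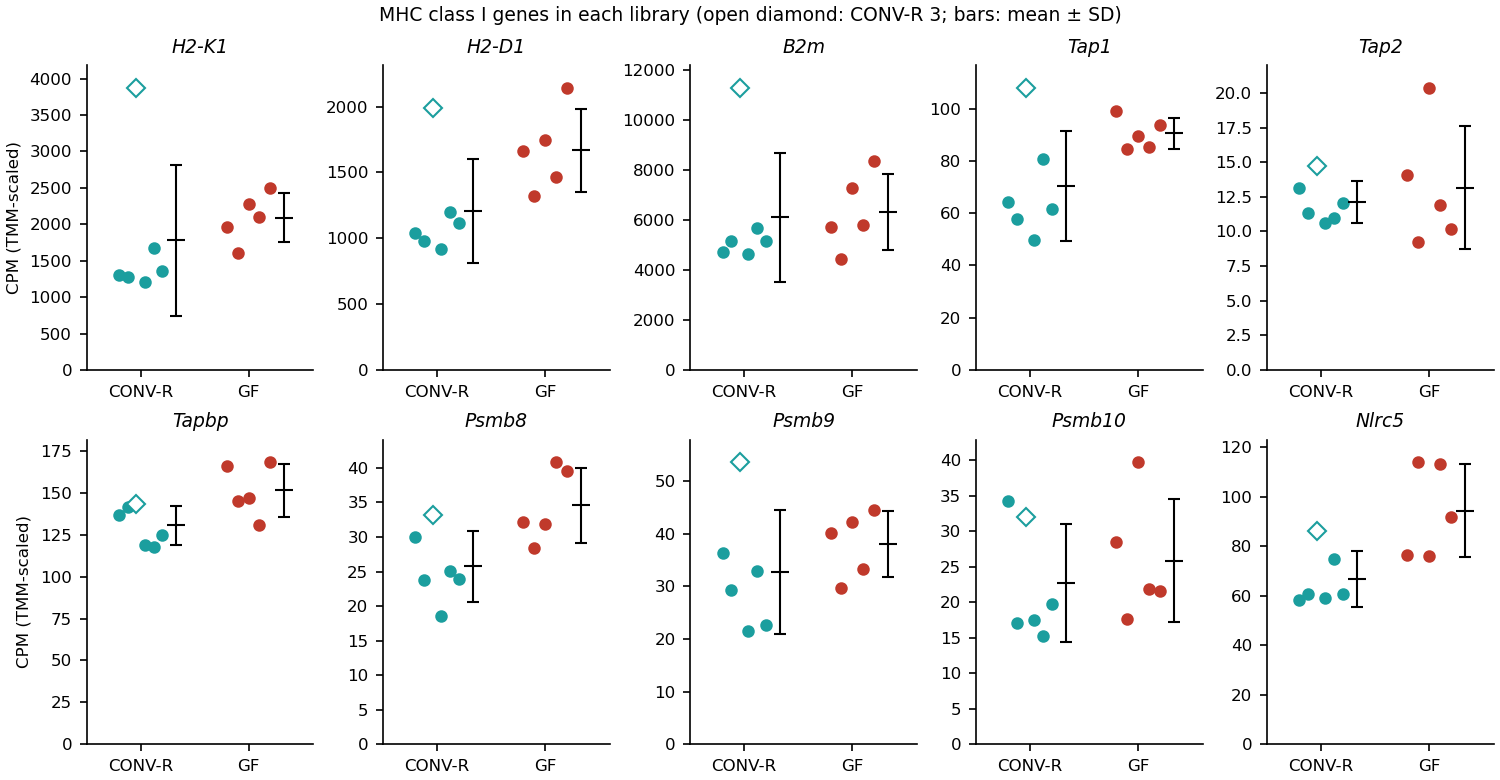
Expression of the 10 class I genes in each library, in TMM-scaled CPM on linear axes that start at 0, for 6 CONV-R (turquoise) and 5 GF (red) libraries, with mean ± SD in black; the open diamond is CONV-R 3. CONV-R 3 lies above the other CONV-R libraries for 9 of 10 genes, the exception being *Psmb10*.

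Because the heavy chains are so alike, short reads can fit more than 1 of them. The longest run shared by the coding sequences of *H2-K1* and *H2-D1* is 91 bases, longer than the 50-base reads, and is shown because reads inside it cannot be assigned to either gene alone.
Shared run: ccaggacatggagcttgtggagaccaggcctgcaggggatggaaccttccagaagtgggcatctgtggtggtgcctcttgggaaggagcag
The run covers coding bases 738 to 828 of *H2-K1* and 747 to 837 of *H2-D1*, and the aligned coding sequences are 88.3% identical. Of all 50-base stretches of the annotated transcripts, 9.63% in *H2-K1* and 12.8% in *H2-D1* also occur in another gene, against 0% in *B2m*. The log2 ratio of *H2-K1* to *H2-D1* was 0.47 ± 0.25 (SD, n = 6) in CONV-R and 0.33 ± 0.13 (SD, n = 5) in GF mice, a difference of -0.14 (two-sided exact permutation test, p = 0.318, adjusted over 4 ratios p = 0.528), and of -0.04 (exact permutation p = 0.524) without CONV-R 3. In CONV-R 3 it was 0.96, against 0.28 to 0.48 in the other CONV-R libraries, so *H2-K1* was raised there more than *H2-D1*.

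The peptide transporter and its partner came next in the pathway. *Tap1* and *Tap2* encode the partners of the TAP heterodimer, and tapasin couples it to the heavy chain. *Tap1* ran from 49.7 CPM over a median of 62.9 to 108 CPM in CONV-R mice, with CONV-R 3 highest. In GF mice 1, 2, 4, 5 and 6 it was 99.2, 84.6, 89.7, 85.4 and 93.9 CPM. All 5 GF libraries lay above the other 5 CONV-R libraries, which ended at 80.6, and the GF libraries varied little among themselves (SD 6.09 CPM, beside 21.1 in CONV-R mice and 11.4 in these without CONV-R 3). Log2FC of *Tap1* was 0.37 (0.02 to 0.71, adjusted p = 0.189), and 0.53 (0.26 to 0.79, adjusted p = 0.0157) without CONV-R 3. *Tap2* was 10.6 to 14.7 CPM in CONV-R and 14.1, 9.27, 20.4, 11.9 and 10.2 CPM in GF mice 1, 2, 4, 5 and 6. Its GF libraries thus held both the highest and the lowest value, and Log2FC was 0.12 (-0.31 to 0.56, adjusted p = 0.774), and 0.18 (adjusted p = 0.653) without CONV-R 3. *Tapbp* ran from 118 to 143 CPM in CONV-R mice and from 131 to 168 CPM in GF mice, with 4 of 5 GF libraries above every CONV-R library. Log2FC of *Tapbp* was 0.21 (-0.01 to 0.43, adjusted p = 0.234), and 0.24 (adjusted p = 0.171) without CONV-R 3. Of the 50-base stretches of *Tapbp*, 23.2% also occur in another gene, most of them in the antisense gene *Gm19412*, and for *Tap2* 11.6% do, so these counts depend on how reads were assigned.

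*Psmb8*, *Psmb9* and *Psmb10* encode the catalytic subunits that replace *Psmb5*, *Psmb6* and *Psmb7* products in the immunoproteasome. *Psmb8* ran from 18.6 CPM over a median of 24.5 to 33.1 CPM in CONV-R mice and was 32.2, 28.4, 31.9, 40.9 and 39.6 CPM in GF mice 1, 2, 4, 5 and 6. The GF libraries lay mostly above the CONV-R libraries, but CONV-R 1 and 3 reached into their range. Log2FC was 0.43 (0.09 to 0.76, adjusted p = 0.120), and 0.51 (adjusted p = 0.0545) without CONV-R 3. *Psmb9* was 21.5 to 53.7 CPM in CONV-R and 29.7 to 44.6 CPM in GF mice, with a Log2FC of 0.22 (adjusted p = 0.565), and 0.41 (adjusted p = 0.145) without CONV-R 3. *Psmb10* was 15.3 to 34.3 CPM in CONV-R and 17.6 to 39.7 CPM in GF mice, with a Log2FC of 0.20 (adjusted p = 0.689), and 0.32 (adjusted p = 0.472) without CONV-R 3. *Psmb8* overlaps the antisense gene *Gm20496*, which shares most of the 11.9% of its 50-base stretches found elsewhere, and *Psmb9* and *Tap1* overlap head to head.

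Within a library, the ratio of an inducible subunit to the subunit it replaces does not depend on scaling between libraries. These ratios are of CPM without regard to transcript length, so they compare mice and not the subunits. The log2 ratio of *Psmb8* to *Psmb5* was 2.22 ± 0.45 (SD, n = 6) in CONV-R mice and 2.02 ± 0.24 (SD, n = 5) in GF mice. Per kilobase of exon *Psmb8* and *Psmb5* had mean levels of 7.62 and 6.30 CPM per kilobase in CONV-R mice and of 10.2 and 9.37 in GF mice, and *Psmb5* was the higher in CONV-R 1, GF 1 and GF 4. The log2 ratio of *Psmb9* to *Psmb6* was 0.30 ± 0.36 in CONV-R and 0.11 ± 0.18 in GF mice, and that of *Psmb10* to *Psmb7* was 0.26 ± 0.96 and 0.13 ± 0.39. GF minus CONV-R was -0.20, -0.19 and -0.13 for these ratios, and none differed beyond the spread between mice (two-sided exact permutation tests, p = 0.396, 0.342 and 0.853, adjusted over 4 ratios p = 0.528, 0.528 and 0.853). The smallest p that 5 mice against 6 allow is 0.00216. Without CONV-R 3 the *Psmb8* to *Psmb5* difference was -0.18 and that of *Psmb9* to *Psmb6* was -0.06 (exact permutation p = 0.476 and 0.603). The *Psmb10* to *Psmb7* difference turned to 0.23 (exact permutation p = 0.421), since that library alone had a log2 ratio of 2.05 with *Psmb7* at 7.61 CPM. The ratio to *Psmb5* rests on a gene of 3.34 to 9.93 CPM, of whose 50-base stretches 54.1% also occur elsewhere, mostly in *Gm3375*.

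**Figure D3:**
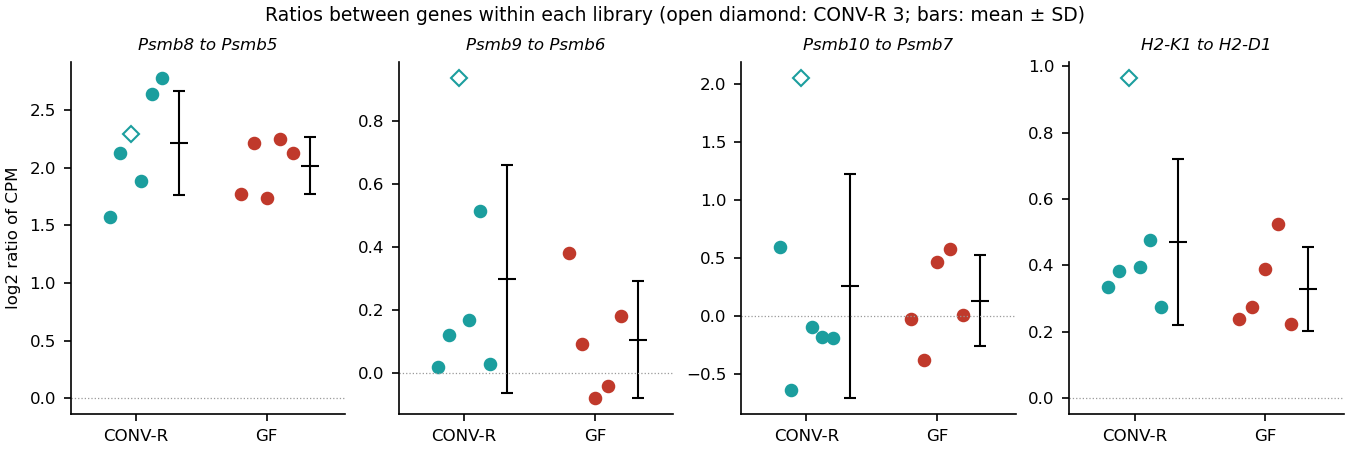
Log2 ratio of each inducible proteasome subunit to its constitutive counterpart and of *H2-K1* to *H2-D1* (y axis, log2 ratio of CPM) in 6 CONV-R and 5 GF libraries, with mean ± SD in black; the open diamond is CONV-R 3. The groups overlap in all 4 panels, and CONV-R 3 has the highest value in 3 of them.

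*Nlrc5*, on chromosome 8, encodes the NOD-like receptor family member that acts in the nucleus as the transactivator of class I genes. It ran from 58.3 CPM over a median of 60.7 to 86.3 CPM in CONV-R mice. In GF mice 1, 2, 4, 5 and 6 it was 76.5, 114, 75.9, 113 and 91.8 CPM. The 3 higher GF libraries lay above every CONV-R library, and all 5 lay above the CONV-R libraries other than CONV-R 3. Log2FC was 0.50 (0.19 to 0.81, adjusted p = 0.0461), a ratio of 1.42, and 0.59 (0.30 to 0.87, adjusted p = 0.0147) without CONV-R 3. The call is near the threshold: with each library left out in turn, it was kept in 3 of 11 fits, those without CONV-R 3, GF 1 or GF 4, and adjusted p ranged from 0.0147 to 0.116 while Log2FC stayed between 0.42 and 0.59. The adjusted p of 0.116 in edgeR's test came from the fit without GF 2, the library highest in *Nlrc5*. GF 2 stood apart from all other libraries: 22.6% of listed genes had no counts there, against 36.9% to 47.3% in the others. GF 2 and GF 5, the libraries highest in *Nlrc5*, were not those highest in the heavy chains, which peaked in GF 6.

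The map of all members by library showed how unevenly single mice contributed. In CONV-R 3, *H2-K1* was 2.84 times the mean of the other 5 CONV-R libraries, *B2m* 2.23 times, *H2-D1* 1.89 times, *Psmb9* 1.88 times and *Tap1* 1.72 times. *Tapbp* at 1.12 times and *Tap2* at 1.27 times were least raised. On the log2 scale CONV-R 3 differed from the other CONV-R libraries by a median of 0.74 over the 10 genes and of 0.76 over 12 tested non-classical heavy chains, beside -0.01 for all tested genes. The difference was 0.51 for 9 proteasome activators and assembly factors, 0.37 for 14 constitutive core subunits and 0.34 for 28 interferon-stimulated genes outside class I, among them *Cxcl10* at 1.97, *Isg15* at 1.65 and *Irgm1* at 0.89 but also *Oas1a* at -0.73 and *Ifi44* at -0.43. The median was near 0 for the ER loading list (-0.11), the promoter factors (0.05), the cross-presentation list (0.03) and the interferon receptors (-0.04). In the first 3 of these lists single genes went far both ways, from -1.24 to 1.04, from -1.76 to 1.03 and from -1.36 to 1.43. For the 6 ligands it was 0.41, with the checkpoint ligand *Cd274* at 1.24. In CONV-R 3 the median difference was -0.18 for Kupffer markers (from -1.25 to 0.77) and -0.16 for sinusoidal EC markers (from -0.66 to 0.82). Single genes of both lists thus went both ways. The 3 tested platelet markers were higher in CONV-R 3 by 0.33 to 0.73 (median 0.47). So were 3 of 6 listed dendritic cell markers (median 0.28), the others being too low to test. Of 2 tested cholangiocyte markers, *Spp1* differed by 3.01 and *Krt19* by -2.05. The 3 tested stellate cell markers had a median of -0.99 (from -1.51 to 0.10). The part of such cells was not tested. These 3 describe dendritic cells poorly, since *Clec9a* overlaps *Clec1b* on the same strand, and *Zbtb46* was lower in GF mice (Log2FC -0.39, adjusted p = 0.0443, and 0.0638 without CONV-R 3). Gene length moved with this library: the median difference was 0.18 in the shortest 25% of tested genes, which holds *H2-D1*, *B2m* and *Psmb10*. It was 0.05 in the next 25%, which holds *Tapbp*, *H2-K1*, *Psmb9*, *Psmb8* and *Tap2*. It was -0.02 in the 25% after that, which holds *Tap1*, and -0.14 in the longest 25%, which holds *Nlrc5*. The members themselves differed by 0.17 (*Tapbp*) to 1.51 (*H2-K1*), with *Tap1* at 0.80 and *Nlrc5* at 0.47. The part of gene length in these differences was not tested. Among GF mice, GF 2 was the lowest of its group for 8 of 10 genes but the highest for *Nlrc5*, and GF 6 was the highest for 5.

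**Figure D4:**
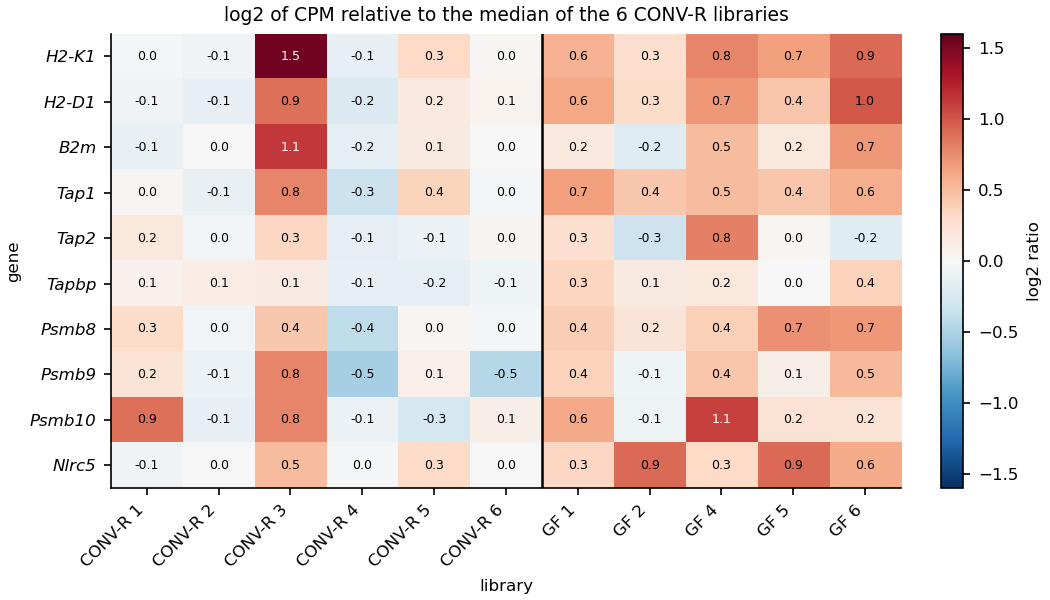
Log2 of CPM relative to the median of the 6 CONV-R libraries for each class I gene (rows) in each library (columns), with blue below and red above that median; the black line separates CONV-R from GF. CONV-R 3 is above the median for 10 of 10 genes, and GF 2 holds the lowest GF value for 8 of 10.

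Beyond the 10 genes, 9 lists of neighbouring steps in the pathway held 117 tested genes, of which 18 were higher (15.4%) and 1 was lower in GF mice, beside 4.8% higher and 2.67% lower among all tested genes. The lists were chosen with earlier results of these data known, so these shares are descriptions, and their difference was not tested. The interferon-stimulated genes (8 of 28) and the promoter factors (4 of 18) held 12 of the 18, while 4 lists of 8 to 14 genes held 1 higher gene each, 1 list of 12 held 2, and 2 lists held none. When each library was left out in turn, 7 of these 19 calls were kept in all 11 fits (*H2-T23*, *Rab27a*, *Stat2*, *Igtp*, *Irgm2*, *Cmpk2* and *Gbp2*), and 8 were kept in at most 4 (*Erap1*, *Psmb4*, *Cybb*, *Nfya*, *Jak2*, *Gbp7*, *Ddx58* and *Cxcl9*). Among 12 tested non-classical and class I-like heavy chains, the median Log2FC was 0.25 and 1 gene was higher. This was *H2-T23*, which encodes Qa-1, a ligand of the NK cell receptor CD94/NKG2A. It ran from 96.3 CPM over a median of 117 to 162 in CONV-R mice and was 220, 162, 252, 161 and 186 CPM in GF mice 1, 2, 4, 5 and 6, with a Log2FC of 0.66 (0.35 to 0.97, adjusted p = 0.0115). The call of *H2-T23* was kept in 11 of 11 fits that left out a library, and 14.5% of its 50-base stretches also occur in other genes. *H2-Q4*, *H2-Q6* and *H2-Q7*, which passed without CONV-R 3 but not with all libraries in the same fit (Log2FC 0.52, 0.67 and 0.63, adjusted p = 0.0231, 0.0230 and 0.0319), share 26.5% to 36.4% of theirs and are uncertain. Their values with all libraries were 0.26, 0.52 and 0.32, and *H2-Q6* also passed with all libraries when no filter was set on low counts. The lowest estimate of the list was -0.27 for *Mr1* (adjusted p = 0.306), which presents vitamin B metabolites of microbes to MAIT cells.

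Of 10 genes for loading and trimming in the ER, 1 was higher, the aminopeptidase *Erap1* that trims peptides to their final length (Log2FC 0.42, adjusted p = 0.0482, and 0.40 with adjusted p = 0.0633 without CONV-R 3). The median of that list was 0.39, and the chaperone calreticulin (*Calr*) had the largest estimate at 0.89 (adjusted p = 0.0913), with 88.2 to 329 CPM in CONV-R and 161 to 476 CPM in GF libraries. Of 14 constitutive core proteasome subunits, *Psmb4* was higher (Log2FC 0.64, adjusted p = 0.0282), and of 9 activators and assembly factors none passed in edgeR's test, with 0 of them under an unadjusted p of 0.05 and 0 called by DESeq2. Of 12 genes for cross-presentation, *Rab27a*, a GTPase of vesicle docking, rose by a Log2FC of 0.80 (adjusted p = 0.0126), and the phagocyte oxidase subunit *Cybb* by 1.23 (adjusted p = 0.0438, and 0.0649 without CONV-R 3). *Cybb* is also abundant in macrophages, its highest value was the 86.4 CPM of a GF library, and its call was kept in 4 of 11 fits that left out a library. Neither was called with CONV-R 3 and GF 6 left out.

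Among 18 factors that act on class I promoters, 4 were higher. *Stat2* and *Irf9*, partners in the complex that type I interferon forms, did not overlap between the groups. *Stat2* was 125 to 143 CPM in CONV-R and 174 to 198 CPM in GF libraries (Log2FC 0.47, adjusted p = 0.00461), and *Irf9* was 57.1 to 71.2 and 81.3 to 101 CPM (Log2FC 0.43, adjusted p = 0.0252). Values higher in GF without overlap were found for 3.22% of all tested genes. The Y box subunit *Nfya* and *Irf8* were also higher (Log2FC 0.41 and 0.55, adjusted p = 0.0419 and 0.0250). The X box factor *Rfx5* had the lowest estimate of the list at -0.35 (adjusted p = 0.114), and *Irf1*, an early interferon target, stood at -0.26 (adjusted p = 0.270), and at -0.15 (adjusted p = 0.460) without CONV-R 3. Of 8 tested interferon receptors, kinases and their inhibitor *Socs1*, the IFN-γ receptor chain *Ifngr1* was higher (Log2FC 0.60, adjusted p = 0.0154) and the kinase *Jak2* lower (-0.35, adjusted p = 0.0402), the only gene of the 9 lists that fell. *Socs1* had the lowest estimate at -0.88 (adjusted p = 0.232).

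Of 28 tested interferon-stimulated genes outside class I, 8 were higher and 0 lower, with a median Log2FC of 0.34. *Igtp* and *Irgm2* are immunity-related GTPases that guard vacuoles. *Igtp* ran from 18.9 CPM over a median of 26.3 to 39.2 in CONV-R mice and was 61.4, 59.1, 57.9, 46.7 and 64.6 CPM in GF mice 1, 2, 4, 5 and 6, so the groups did not overlap (Log2FC 1.06, adjusted p = 0.000874). *Irgm2* was 83.9 to 135 and 141 to 245 CPM (Log2FC 0.94, adjusted p = 0.00178), and since these genes overlap on the same strand their counts are not independent. The chemokine *Cxcl9*, which attracts T cells, was 79.1 to 268 CPM in CONV-R and 183 to 335 CPM in GF libraries (Log2FC 0.91, adjusted p = 0.0327), and its highest CONV-R value was that of CONV-R 3. Without that library *Cxcl9* had the largest Log2FC of the list, 1.23, beside 1.11 for *Igtp* and 1.00 for *Irgm2*. *Cmpk2*, *Ifit1*, *Gbp2*, *Gbp7* and *Ddx58* were higher with Log2FC of 0.66, 0.74, 0.61, 0.49 and 0.34, *Gbp7* and *Ddx58* no longer past the threshold without CONV-R 3. *Cxcl10* and *Isg15* had the estimates -0.59 (adjusted p = 0.370) and -0.58 (adjusted p = 0.626), which without CONV-R 3 were -0.04 and -0.11. Of 6 tested ligands that T cells and NK cells meet beside class I, none passed in edgeR's test, 1 was under an unadjusted p of 0.05 and DESeq2 called 0; *Cd274*, which encodes PD-L1, was 57.3 to 163 CPM in CONV-R and 43.3 to 94.0 CPM in GF libraries (Log2FC -0.48, adjusted p = 0.267, and -0.19 with adjusted p = 0.569 without CONV-R 3). The largest estimate of that list was 1.22 (adjusted p = 0.152) for the costimulatory ligand *Cd86*, with 0.321 to 3.34 CPM in CONV-R and 2.01 to 8.41 CPM in GF libraries, and the lowest was -0.61 (adjusted p = 0.338) for *Icosl*.

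**Figure D5:**
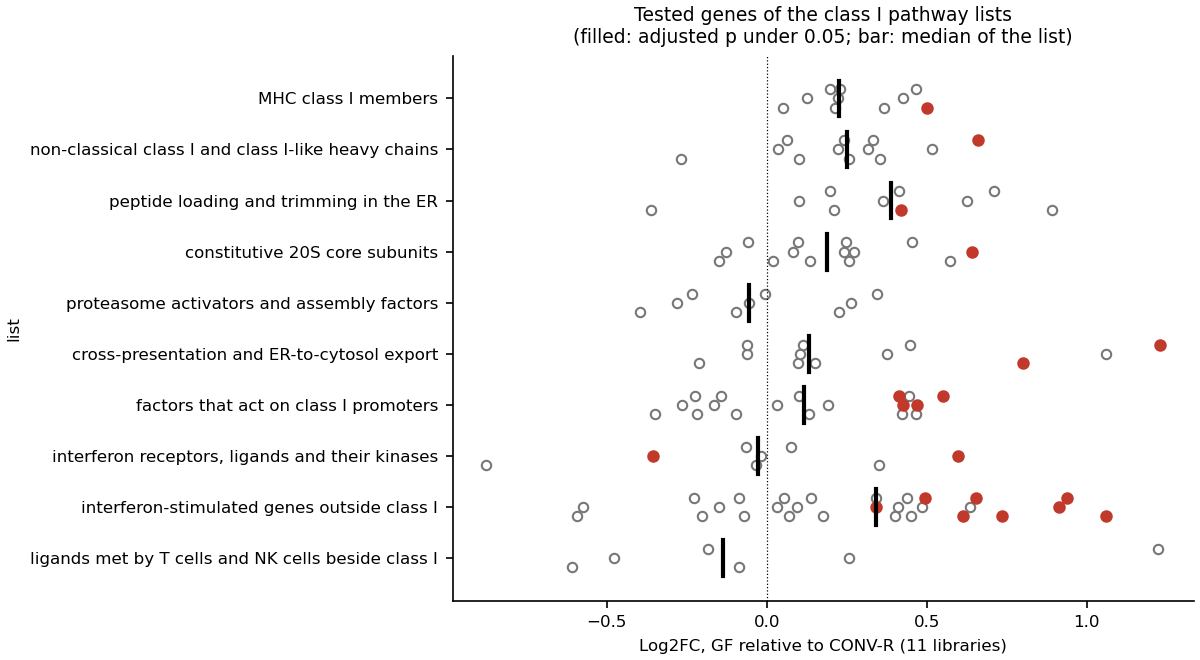
Log2FC of GF relative to CONV-R mice (x axis, all 11 libraries) for each tested gene of the class I genes and of 9 neighbouring lists (y axis); red points have an adjusted p under 0.05 and the black bar is the median of the list. The median is 0.23 for the 10 class I genes, 0.34 for interferon-stimulated genes and -0.14 for ligands met by T cells and NK cells, and *Jak2* is the only red point below 0.

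The genes whose pattern over the 11 libraries was closest to the mean pattern of the 10 were ranked by the root mean square difference of standardized log2 CPM. They were *Nfe2l2* (0.25), *Ndufc2* (0.26), *St3gal5* (0.29), *Pxk* (0.32), *H2-Q4* (0.32), *Cxcl9* (0.33), *Cd9* (0.34), *Chmp4b* (0.36), *Psmb4* (0.36) and *Fam57a* (0.40), beside a median of 1.36 over 12895 other tested genes. The members themselves lay between 0.30 for *H2-D1* and 0.92 for *Tap2*, and 6 of them (*Tap2*, *Nlrc5*, *Psmb10*, *Tapbp*, *B2m* and *Psmb8*) followed the common pattern less closely than these outside genes did. The mean pattern is itself highest in CONV-R 3, so the choice of these genes favours those high in that library, and all 10 exceeded the mean of the other CONV-R libraries there, by 0.35 to 1.57 on the log2 scale. Of the 10, 2, *Cxcl9* and *Psmb4*, passed the test between the groups.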

How the data were processed

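Liver sinusoidal ECs of 6 CONV-R and 5 GF mice gave 1 library each, and groups follow the sample labels. According to the methods, reads were trimmed, aligned to GRCm38 with STAR and assigned to genes with featureCounts, and the raw counts deposited by the authors are not normalized; a further GF library with few mapped reads had been dropped. A second deposited table holds log2 values that the authors normalized with the DESeq method, and it served only as an alternative here. The annotation release and the strand setting are not given in the sources used here. Counts (7242717 to 16164588 per library, which limits weakly counted genes) were filtered with filterByExpr of edgeR 4.0.16 in R 4.3.3, scaled by TMM and compared with edgeR's quasi-likelihood test over all 11 libraries without covariates, with Benjamini-Hochberg adjustment over 12905 tested genes and a threshold of 0.05. Ratios within a library (prior count 2) were set against each other by exact permutation, two-sided. The fit was tested on simulated data. Gene positions and lengths are from GENCODE M21 on GRCm38.

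The members and lists were chosen with earlier results of these data known. Named are all members, list genes past the threshold or at the ends of a list, the genes of most similar pattern and the proteasome subunits of the ratios; *H2-Q4*, *H2-Q6*, *H2-Q7*, *Irf1* and the interferon-stimulated genes named for CONV-R 3 were chosen after their values were seen, as were *Cd274*, *Cxcl10* and *Isg15*. Alternatives were DESeq2 1.42.0, its size factors, voom of limma 3.58.1, robust dispersion, other filters, the normalized values, a block for the replicate number, and each library left out in turn. CONV-R 3 was singled out among these after the class I values were seen, and leaving it out together with GF 2 or GF 6 was added then.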

Additional observations from a re-analysis of the deposited data

Results flagged for a closer look

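CONV-R 3 lay far above the other 5 CONV-R libraries for *H2-K1* at 3875 CPM, for *H2-D1* at 1985 CPM and for *B2m* at 11296 CPM, each gap being wide enough to pass Dixon's 95% criterion. The log2 ratio of *H2-K1* to *H2-D1* was set apart in the same library, at 0.96. Among GF libraries, the summed level of the Kupffer cell markers was set apart in GF 6, at 1150 CPM. In all, 5 of 44 sets of values were marked in this way, where chance marks about 1 in 20, and 4 of the 5 concern the same library.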

How the results depend on the processing

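The count of class I genes called was 1 with DESeq2's size factors, the DESeq2 test, voom, robust dispersion, no filter, at least 10 counts in every library and the normalized values, and the called gene was *Nlrc5* each time (adjusted p 0.0217 to 0.0473). Leaving out each library in turn gave 0 to 4 called members (4 without CONV-R 3, 0 in 8 of 11 fits), 9 called genes (without GF 6) to 26 (without GF 5) of the 9 wider lists in place of 19, and 622 to 1260 called genes overall in place of 965. The lowest overall counts came without GF 6 (622) and without CONV-R 4; the cause was not tested. With CONV-R 3 and GF 2 left out 5 members were called beside 897 of all 12951 tested genes. CONV-R 3 was the highest CONV-R library for 9 of the 10 members and GF 2 the lowest GF library for 8. Leaving out both raises the members' difference by construction, so that count cannot be read against the 897. With CONV-R 3 and GF 6 left out 4 members and 10 genes of the wider lists were called. The DESeq2 test called 1535 genes in all, among more tested genes. A replicate block on the 10 libraries numbered in both groups, which also leaves out CONV-R 3, called 5 members, *Psmb8* being added with an adjusted p of 0.0480, and 1101 of 12807 genes overall. The numbers do not pair the mice: deviations of same-numbered libraries correlated at 0.20, 0.05, -0.01, 0.02 and 0.09, and 2 of 5 numbers matched best with their own.

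Estimates near 0 changed sign without passing any threshold. With each library left out in turn, *B2m* ranged from -0.070 to 0.318, with values below 0 without CONV-R 1 (-0.013), CONV-R 4 (-0.022), GF 4 (-0.0066) and GF 6. *Tap2* ranged from -0.089 to 0.23 and *Psmb10* from -0.013 to 0.355, both lowest and below 0 without GF 4. The *Psmb10* to *Psmb7* difference ranged from -0.30 to 0.23, being above 0 without CONV-R 3 (0.23) and without GF 2 (0.0029), and was 0.23 in the replicate block. No other ratio changed direction. The lowest counts of *Tap2* and *Psmb10* were 75 and 159, and how far depth limits their estimates was not tested.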
